A study of Arabidopsis thaliana with 4 samples.

Results

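The cytosolic ribosomal protein genes described here are 52 Arabidopsis loci, 29 for the large (60S) and 23 for the small (40S) ribosomal subunit, of 32548 nuclear loci in the deposited tables. They were taken from a list of loci that leaves out plastid and mitochondrial ribosomal proteins, and the reads of all transcript entries of a locus were summed. The data come from an RNA immunoprecipitation (RIP), in which RNA bound by a protein is recovered with an antibody and sequenced. Nuclei were prepared from leaves (aerial tissue) of Col-0 plants 4 weeks old, grown with 16 h of light and 8 h of dark at 22 °C, after crosslinking in 0.1% formaldehyde. The groups are the MTA-GFP IP and the MTA-GFP input, from plants that carry the m6A methylase MTA fused to GFP, and the control IP and the control input, with 1 library in each. For the control plants, titles give GFP where the genotype entry gives CFP. Neither the promoter that drives a transgene nor the state of the native MTA gene is stated in the labels. All 4 groups share the background, the crosslinking and, for the IPs, anti-GFP (GFP Trap) beads.

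Each ribosome holds a single copy of nearly every ribosomal protein, so the genes of both subunits are usually expressed together, and their transcripts are among the most abundant in growing leaf cells. In Arabidopsis each protein is encoded by a small group of paralogous genes. Loss of single paralogs is known to give leaf, gynoecium or embryo defects, as the names POINTED FIRST LEAVES (PFL), PIGGYBACK2 (PGY2), SHORT VALVE1 (STV1) and EMB2296 record. MTA is the catalytic methyltransferase of the nuclear complex that places m6A on messenger RNA. In the 4 libraries the mRNA is that of a nuclear fraction, so the values below are not levels of the cytoplasmic pool that is translated.

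The libraries held 36098699 to 45198238 reads. Nuclear mRNA made up 8.43% of them in the MTA-GFP IP, 2.3% for the MTA-GFP input, 2.11% in the control IP and 4.31% in the control input. The MTA locus took 356 RPM (reads scaled to a common library total) in the MTA-GFP IP and 52.1 in the MTA-GFP input, against 0.686 in the control IP and 1.60 in the control input. All 4 leaf markers (RBCS1A, CAB1, CA1 and RCA) had reads in every library, 14317 to 57919 in sum, while the flower, root and seed markers had at most 7 reads summed per list in any library and EXPA7, RHD6 and SESA1 had 0 reads. In the control IP, 132035 reads lay on the single locus AT2G16586, against 10133 to 27015 in the other libraries. With 1 library per group no difference below has a replicate check: the 95% intervals cover counting error only, and no p-value is given.

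The ribosomal protein genes together took 13317 reads in the MTA-GFP IP, 4133 for the MTA-GFP input, 2839 in the control IP and 4903 in the control input. As a share of the nuclear mRNA reads this was 0.437% (Wilson 95% interval 0.430 to 0.445) in the MTA-GFP IP, 0.409% (0.396 to 0.421) for the MTA-GFP input, 0.297% (0.286 to 0.308) in the control IP and 0.285% (0.277 to 0.293) in the control input. Both MTA-GFP libraries were therefore above both control libraries, and the IP and input of each line lay close together. Without AT2G16586 among the mRNA reads, the share was 0.345% in the control IP and 0.289% in the control input. It was then 0.440% for the MTA-GFP IP and 0.413% for the MTA-GFP input. The closeness of IP and input in the control line thus depended on that locus, while both MTA-GFP libraries stayed above both control libraries.

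Levels per transcript length are given as mRNA TPM, the deposited TPM, a length-corrected relative abundance, rescaled so that nuclear mRNA alone makes up the whole. The median gene had 131 mRNA TPM in the MTA-GFP IP, 117 for the MTA-GFP input, 88.4 in the control IP and 82.7 in the control input, against 30.9, 23.4, 22.6 and 25.5 for the median of the 15252 coding loci compared in the same order of libraries. In that order, 46, 46, 46 and 44 of the 52 genes lay above the median coding locus, and 36, 32, 28 and 17 lay above the 90th percentile of the coding loci. The small subunit gene AT5G20290 was the highest of the 52 in the MTA-GFP IP (338 mRNA TPM) and in the MTA-GFP input (369.9), whereas the large subunit gene AT2G34480 led in the control IP (234) and the small subunit gene AT2G41840 in the control input (323). Levels within the group spanned from these values down to 5.999 mRNA TPM for AT2G40010 in the MTA-GFP IP, 1.95 for RPL10B in the MTA-GFP input and 2.34 for RPL10B in the control input.

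**Figure D1:**
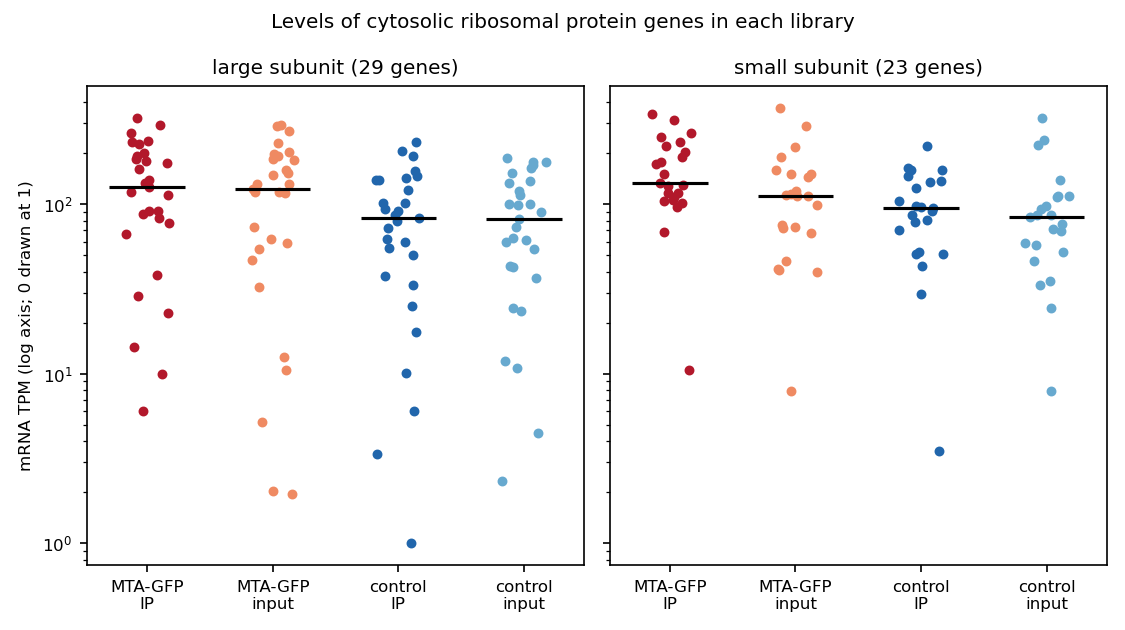
Level of each gene in mRNA TPM on a log axis, by library, for the 29 large subunit genes (left) and the 23 small subunit genes (right), where each point is a gene, the bar is the median and a level of 0 is drawn at 1. The medians lie between 81.6 and 133 mRNA TPM in both subunits, and a few genes lie far below them, more of them in the large subunit panel.

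The 6 genes with the most reads were AT2G41840, AT5G20290, AT3G09200, RP1, ATL5 and P40. AT2G41840, a small subunit gene, had 259 scaled reads in the MTA-GFP IP, 392 for the MTA-GFP input, 215 in the control IP and 390.5 in the control input, where scaled reads are reads divided by a library factor (the TMM factor times the library size) computed over all 15669 loci with at least 40 reads in the 4 libraries. Both inputs were thus above both IPs. AT5G20290 had 269 scaled reads in the MTA-GFP IP, 401 for the MTA-GFP input, 239 in the control IP and 231 in the control input, so that the MTA-GFP input alone stood high. AT3G09200, which encodes a large subunit protein, had 294, 270.0, 311 and 174 scaled reads in the MTA-GFP IP, the MTA-GFP input, the control IP and the control input, and here the control input alone stood low. RP1, annotated as ribosomal protein L3 (RPL3A) and as an embryo-defective locus, had 274, 278, 239 and 182 scaled reads in the same libraries. ATL5 (RPL5A, PIGGYBACK3), whose protein binds the 5S rRNA in the large subunit, had 175, 287, 188 and 201 scaled reads. P40 (RPSAA), the laminin-receptor-like protein of the small subunit, had 182, 245, 205 and 162. For RP1, ATL5 and P40 the MTA-GFP input was the highest library. RPL10B, a paralog of SAC52, had the fewest reads of the 52, with 15 in the MTA-GFP IP, 1 for the MTA-GFP input, 3 in the control IP and 2 in the control input. It and 2 other paralogs, AT2G40010 and AT5G39850, were under 40 reads in all and were left out of the ratios of single genes, which leaves 49. Of these, 46 would have passed without the reads of the MTA-GFP IP, the library with the most mRNA reads. AT4G10450, RPL16A and AT3G11250 would not, so their ratios are included below only through the reads of that library.

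The subunits were first compared within each library, where no scaling between libraries enters. Large subunit genes had 1.19 reads per small subunit read in the MTA-GFP IP (95% interval 1.15 to 1.24), 1.34 for the MTA-GFP input (1.26 to 1.42), 1.25 in the control IP (1.16 to 1.35) and 1.18 in the control input (1.12 to 1.25). In the MTA-GFP pair the ratio was lower in the IP than in the input, by 0.893-fold (0.832 to 0.958), while in the control pair the IP over input was 1.06-fold (0.962 to 1.16). Without the most-read gene of each subunit, AT3G09200 and AT2G41840, the control pair gave 0.899-fold (0.814 to 0.993). With all genes, the interval of the control pair included 1 and gave no direction. The MTA-GFP pair kept its direction without these genes, at 0.831-fold (0.771 to 0.896). The other large over other small subunit genes (94 and 60 loci) gave 0.898-fold (0.847 to 0.953) in the MTA-GFP pair and 0.843-fold (0.782 to 0.909) in the control pair.

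The comparison of the MTA-GFP IP with its own input addresses which nuclear transcripts were recovered with MTA. Ribosomal protein transcripts as a group were recovered about as the typical locus: the median log2 ratio was -0.06 over the 49 genes and -0.03 over all 15669 loci. A gene was called higher or lower when its ratio was at least 2-fold and its interval left out 1, which held for 15.5% of all loci (7.12% higher, 8.4% lower) and for 6.12% of the ribosomal protein genes, 2 higher and 1 lower. At any size, 7 genes had an interval above 1 and 18 below it, against 14.2% and 22.0% of all loci. These shares also depend on depth, since most of the 49 genes have more reads than the typical locus. The median was -0.24 for the 27 large subunit genes and 0.03 for the 22 small subunit genes; the difference was not tested. Pooled over the 52 genes, the ratio was 1.07-fold per mRNA read (1.03 to 1.11) and 0.872-fold on TMM-scaled reads (0.842 to 0.903), so the sign of this small pooled difference depends on the scaling.

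RPS10B, one of the genes for protein S10 of the small subunit, had 271 reads in the MTA-GFP IP, 21 for the MTA-GFP input, 66 in the control IP and 74 in the control input. On scaled reads these are 114, 32.8, 114 and 65.2, so both IPs were alike and the MTA-GFP input was lowest. Its log2 ratio was 1.79 (1.16 to 2.52) in the MTA-GFP pair and 0.80 (0.30 to 1.298) in the control pair. AT4G10450, a large subunit paralog of PGY2, had 49, 3, 11 and 25 reads in the MTA-GFP IP, MTA-GFP input, control IP and control input, which are 20.7, 4.68, 18.9 and 22.0 scaled reads. Only the MTA-GFP input stood apart. Its log2 ratio in the MTA-GFP pair was 2.03 (0.51 to 4.47), and that ratio rests on the 3 reads of the input. RPL24A, a large subunit protein at the subunit interface, was the gene called lower, with 54.9 scaled reads in the MTA-GFP IP, 111 for the MTA-GFP input, 22.4 in the control IP and 80.2 in the control input. Both IPs were below both inputs. The log2 ratio was -1.01 (-1.44 to -0.57) in the MTA-GFP pair, just past 2-fold, and it was not past 2-fold with median-of-ratios factors (-0.98), with nuclear mRNA scaling (-0.71), with 5 reads added (-0.95) or with no minimum of reads (-0.99). Scaled to all reads, its sign turned to 1.15, as all loci shifted by 2.14.

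The control IP over its own input measures what the same beads recovered from the control plants. The median log2 ratio was 0.17 over the 49 genes, against -0.01 over all loci, with 0.15 for the large and 0.33 for the small subunit. Called were 6 genes higher and 3 lower, or 18.4% of the 49, against 21.6% of all loci (9.18% higher, 12.4% lower). At any size, 13 genes had an interval above 1 and 5 below it, against 18.1% and 19.7% of all loci. The 6 called higher were AT1G34030, RPS18C, AT2G19730, RPS5A, EMB2296 and AT5G27700, 4 of them small subunit genes. AT2G19730 was not past 2-fold with nuclear mRNA scaling (0.96), mRNA TPM (0.91) or 5 reads added (0.97), AT1G34030 was not with 5 reads added (0.98), and RPS18C was not with mRNA TPM (0.97). RPS5A, known for its requirement in early embryo cell division, had 172 scaled reads in the MTA-GFP IP, 111 for the MTA-GFP input, 148 in the control IP and 62.6 in the control input. The control input was lowest, and the log2 ratio of the control pair was 1.23 (0.77 to 1.72), against 0.63 (0.27 to 1.02) in the MTA-GFP pair. The 3 called lower were RPS6, RPL24A and RPL16A. RPS6, the small subunit protein phosphorylated downstream of TOR kinase, had 104, 187, 77.4 and 178 scaled reads in the MTA-GFP IP, MTA-GFP input, control IP and control input. As for RPL24A, both IPs were below both inputs, and the log2 ratio was -1.20 (-1.70 to -0.73) in the control pair and -0.85 (-1.17 to -0.52) in the MTA-GFP pair. RPL24A itself had -1.82 (-2.81 to -0.997) in the control pair. RPL16A had 29, 5, 0 and 9 reads in the 4 libraries, so its ratio in the control pair is only a bound, at least 1.54-fold lower when 3 reads are allowed for the library at 0. That bound leaves out the counting error of the 9 reads in the control input.

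**Figure D2:**
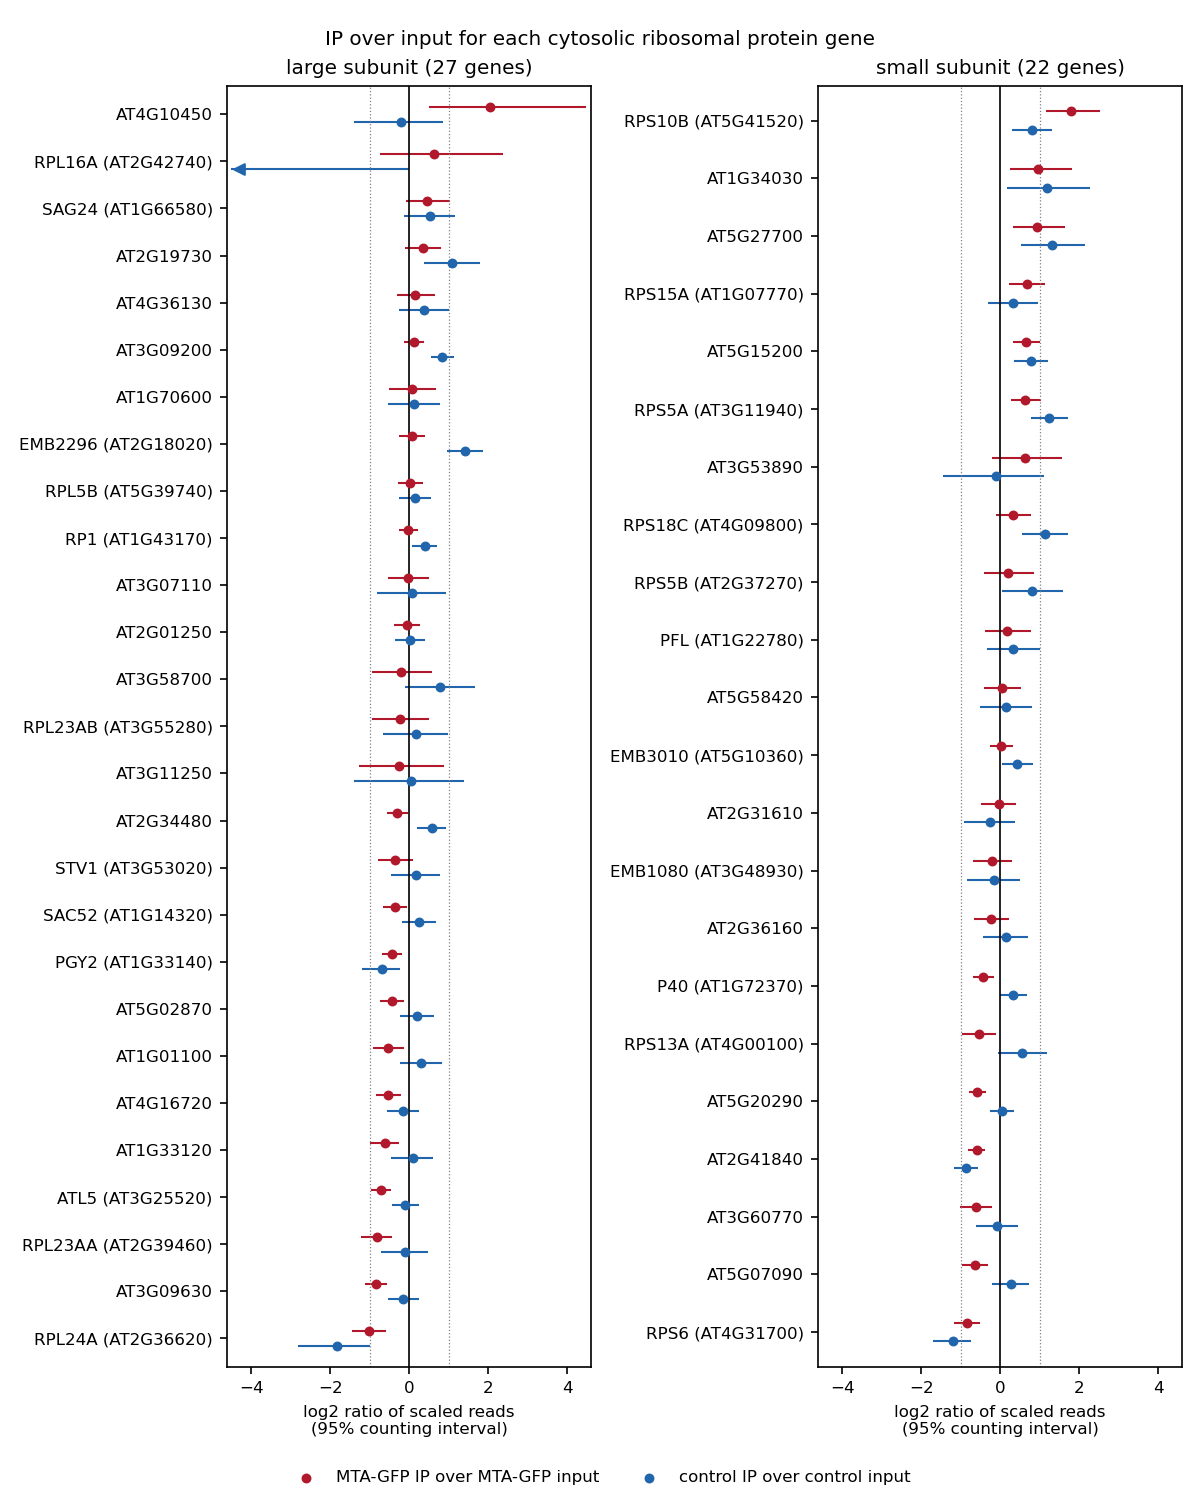
Log2 ratio of IP over input for the 27 large and the 22 small subunit genes with at least 40 reads, with the MTA-GFP pair in red above the control pair in blue, 95% counting intervals as lines and 2-fold as dotted lines. Most points lie within 2-fold in both pairs. RPS10B and AT4G10450 stand out in the MTA-GFP pair, RPL24A is low in both pairs, and the arrow marks RPL16A, which had 0 reads in the control IP.

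The double ratio divides the MTA-GFP IP over input by the control IP over input, which sets the recovery with MTA-GFP against the recovery from the control plants on the same beads. Relative to the typical locus, ribosomal protein transcripts were lower in this ratio: the median log2 value was -0.38 over the 49 genes and -0.01 over all loci, and 39 genes lay below 0 and 10 above. The sign against 0 depends on the scaling. A library factor shifts all loci alike, apart from the 0.5 added, so scalings of reads could not change the position relative to all loci. Scaled to nuclear mRNA reads, the medians were 0.03 for the genes and 0.40 for all loci; with mRNA TPM they were 0.22 and 0.56; and with all reads they were 2.90 and 3.25. On the deposited TPM with 0.5 added the order turned, with 0.26 for the genes and 0.08 for all loci. Only 8.16% of the 49 genes were called, 2 higher and 2 lower, against 17.5% of all loci (8.6% higher, 8.9% lower), so most genes were displaced by less than 2-fold. At any size, 3 genes had an interval above 1 and 17 below it, against 11.9% and 16.0% of all loci. The medians were -0.41 for the large and -0.29 for the small subunit. The double ratio equals the ratio between the IPs (MTA-GFP over control) divided by that between the inputs. The genes had medians of 0.19 between the IPs and 0.62 between the inputs, against -0.01 over all loci in each. Their lower double ratio thus went with a larger difference between the inputs than between the IPs. The leaf markers differed between the lines as well: the 4 leaf markers had double ratios of -1.88 to -1.32. Both phloem markers were lower as well, SUC2 at -2.84 (-3.21 to -2.46) and SULTR2;1 at -1.19 (-1.79 to -0.58), while the guard cell markers FMA and KAT1 had -0.32 and 0.47. SUC2 was 0.82 between the inputs and -2.01 between the IPs. The part of these markers in the result was not tested.

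EMB2296, a large subunit gene annotated as embryo defective, had 158 scaled reads in the MTA-GFP IP, 151 for the MTA-GFP input, 169 in the control IP and 63.5 in the control input. The control input was the library apart from the other 3, and the log2 double ratio was -1.34 (-1.88 to -0.80). RPS13A (POINTED FIRST LEAF 2), a small subunit gene, had 69.7 scaled reads in the MTA-GFP IP, 101 for the MTA-GFP input, 70.5 in the control IP and 47.6 in the control input. The IPs were alike and the inputs differed, which gave a log2 double ratio of -1.10 (-1.82 to -0.39). With nuclear mRNA scaling neither gene stayed past 2-fold, at -0.93 for EMB2296 and -0.69 for RPS13A, and scaled to all reads the values turned to 1.957 for EMB2296 and 2.19 for RPS13A. RPS13A also overlaps AT4G00090, which had 174 reads in the 4 libraries, and the strand setting of the counting is not given in the sources used here. On the higher side, AT4G10450 had a log2 double ratio of 2.25 (0.39 to 4.10), again through the 3 reads of the MTA-GFP input, and it was not called with 5 reads added (1.58). RPL16A was at least 2.41-fold higher with 3 reads allowed for the control IP, but the interval at that floor was 0.524 to 11.1, which includes 1. Both AT4G10450 and RPL16A passed the minimum of reads only through the reads of the MTA-GFP IP.

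**Figure D3:**
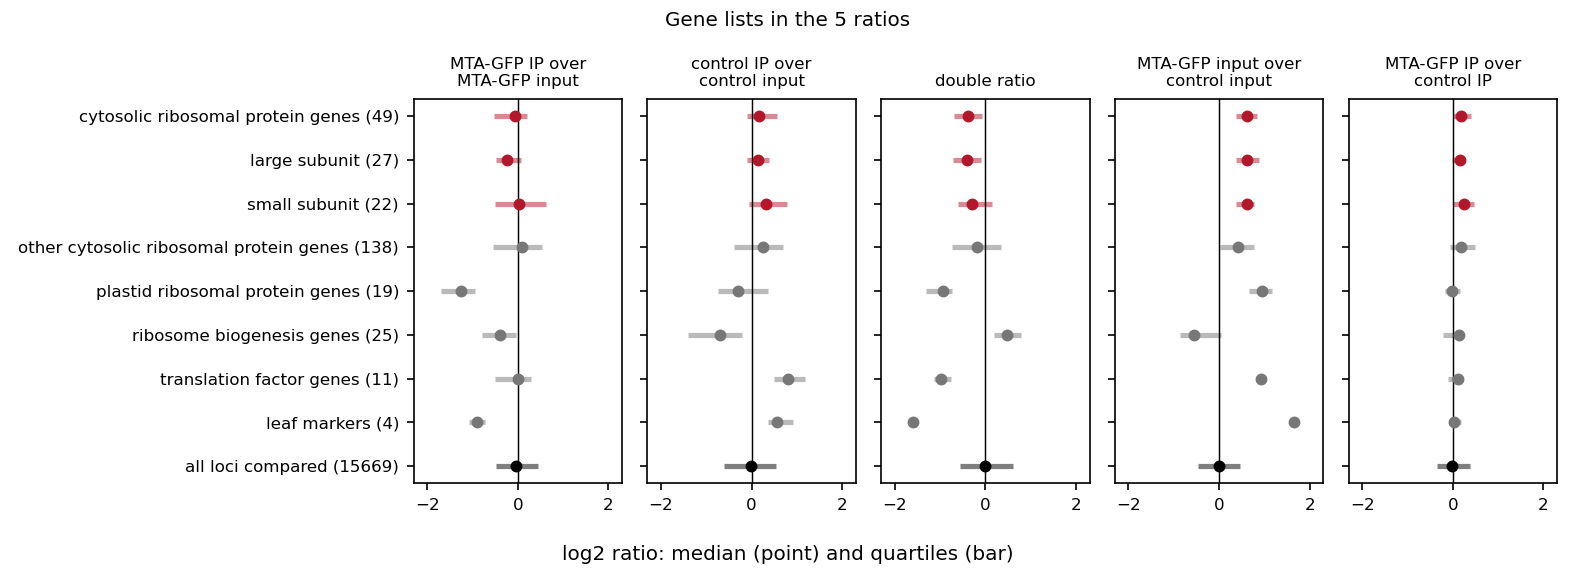
Median (point) and quartiles (bar) of the log2 ratio in 5 ratios for the 49 ribosomal protein genes, their large and small subunits, other gene lists and all 15669 loci compared, with the number of genes in brackets. The ribosomal protein genes lie near all loci in the IP over input of MTA-GFP (-0.06 against -0.03) and above all loci in the MTA-GFP input over the control input (0.62 against -0.01).

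The inputs were compared to describe the nuclear RNA of the lines before any precipitation. Ribosomal protein transcripts of the MTA-GFP input were above those of the control input, by a median log2 ratio of 0.62, against -0.01 over all loci, in 45 of 49 genes (91.8%, against 49.8% of all loci). Large and small subunits had the same median, 0.62. The shift was below 2-fold for most genes: 4 were called higher and 1 lower, or 10.2% of the 49, against 13.8% of all loci (7.02% higher, 6.8% lower). At any size, 28 genes had an interval above 1 and 2 below it, against 15.6% and 15.4% of all loci. The genes called higher were AT2G19730, RPS13A, EMB2296 and AT3G07110. AT3G07110 was not past 2-fold with nuclear mRNA scaling (0.98), mRNA TPM (0.998) or 5 reads added (0.94), and RPS13A was not with mRNA TPM (0.93). AT2G19730, a large subunit gene, had 101 scaled reads in the MTA-GFP IP, 79.6 for the MTA-GFP input, 63.7 in the control IP and 30.0 in the control input, and its log2 ratio of the inputs was 1.39 (0.76 to 2.08). The control input was again the lowest library. AT4G10450 was the gene called lower, at -2.12 (-4.61 to -0.52). Scaled to all reads the median turned to -0.33, with all loci at -0.95. The distance between the genes and all loci was 0.61, which a library factor cannot change apart from the 0.5 added. On the deposited TPM with 0.5 added that distance was only 0.0379, with a median of 0.0317 for the genes. With mRNA TPM and 0.5 added it was 0.60, with medians of 0.45 for the genes and -0.15 for all loci.

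The leaf markers moved with this comparison. All 4 were higher in the MTA-GFP input, with log2 ratios of 1.60 to 1.73, and their summed scaled reads were 24465 in the MTA-GFP IP, 40546 for the MTA-GFP input, 24635 in the control IP and 12633 in the control input. The part of leaf cell content or of nuclear purity in the difference between the inputs was not tested, and fewer cells of a type cannot be told apart from less RNA per cell. Markers of dividing cells gave no more than 50 reads summed in any library, and the 2 of them that were compared, SYP111 and CYCB1;1, had log2 ratios of the inputs of -1.45 and -0.07.

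Between the IPs, MTA-GFP over control, the median log2 ratio was 0.19, against -0.01 over all loci, and 38 of 49 genes were above 0 (77.6%, against 49.5% of all loci). Called were 4 genes higher and none lower (0 of 49), or 8.16%, against 9.31% of all loci (5.11% higher, 4.2% lower). The count of 0 is for calls of at least 2-fold; at any size, 9 genes had an interval above 1 and 0 below it, against 9.07% and 15.0% of all loci. The 4 were RPL24A, PGY2, AT3G53890 and RPL16A. PGY2, a large subunit gene known for its part in leaf polarity, had 201 scaled reads in the MTA-GFP IP, 272 for the MTA-GFP input, 84.3 in the control IP and 137 in the control input. Both MTA-GFP libraries were above both control libraries, and the log2 ratio was 1.25 (0.83 to 1.71) between the IPs and 0.99 (0.67 to 1.31) between the inputs. RPL24A had 1.28 (0.47 to 2.24) between the IPs, and AT3G53890, a small subunit gene, had 1.10 (0.13 to 2.31). RPL16A had 29 reads in the MTA-GFP IP and 0 in the control IP. With the same floor of reads as above for the control IP, RPL16A was 2.37-fold higher. That value leaves out the counting error of the 29 reads. The lower end of its log2 interval was 0.86, which is below 2-fold. RPL16A passed the minimum of reads only through the MTA-GFP IP, the library in which it was called higher here. The value of AT3G53890 rests on 9 reads in the control IP, and with 5 reads added it was not past 2-fold (0.92). This ratio and the 4 others share libraries, so their values stand side by side and are no independent evidence of each other.

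Other genes of the ribosome and of its assembly were set beside the 52 from lists. The other cytosolic ribosomal protein genes (138 of 154 loci compared) had medians of 0.09 in the MTA-GFP pair, 0.24 in the control pair, -0.18 in the double ratio, 0.42 between the inputs and 0.17 between the IPs. They lay on the same side of all loci as the 52 genes in the control pair, in the double ratio, between the inputs and between the IPs. Among them, AT5G18380 was higher in both IPs than in the inputs, with log2 ratios of 0.98 (0.63 to 1.34) in the MTA-GFP pair and 1.06 (0.66 to 1.46) in the control pair. AT4G34670 had -0.29 and -0.05 in the same pairs, emb2386 had -0.80 and -0.50, and AT1G67430 had -0.74 and 0.57.

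The 19 plastid ribosomal protein genes, encoded in the nucleus for the chloroplast ribosome, lay below the cytosolic ones in the MTA-GFP pair. All 19 were below 0 in that pair, with a median of -1.24, and 13 were called lower (68.4%, against 8.4% of all loci). In the control pair the median was -0.29, with 2 called higher and 4 lower, against 9.18% and 12.4% of all loci. Within each library, the 52 cytosolic genes had 2.76 reads per plastid ribosomal protein read in the MTA-GFP IP (2.67 to 2.85), 1.32 for the MTA-GFP input (1.26 to 1.38), 2.29 in the control IP (2.14 to 2.45) and 1.58 in the control input (1.51 to 1.65). Both IPs were above both inputs, by 2.09-fold (1.97 to 2.21) in the MTA-GFP pair and by 1.45-fold (1.34 to 1.57) in the control pair. The most-read of them, EMB3126 and RPL4, had log2 ratios of -1.30 (-1.49 to -1.10) and -1.78 (-2.04 to -1.53) in the MTA-GFP pair. Between the inputs the 19 plastid genes had a median of 0.95, with all 19 above 0, and their median double ratio was -0.92. The cytosolic genes lay on the same side of all loci in these ratios, with medians of 0.62 and -0.38.

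Ribosome biogenesis genes (25 of 27 compared) had medians of -0.40 in the MTA-GFP pair and -0.70 in the control pair. Their double ratio was 0.48, and in the control pair 9 were called lower, against 12.4% of all loci. The cytosolic genes had 3.72 reads per biogenesis read in the MTA-GFP IP (3.58 to 3.86), 2.47 for the MTA-GFP input (2.33 to 2.61), 3.14 in the control IP (2.92 to 3.39) and 1.10 in the control input (1.06 to 1.15). The control input thus held the most biogenesis transcripts for its ribosomal protein transcripts. NUC-L1, the nucleolin that acts in rRNA gene transcription, had 820 reads in the MTA-GFP IP, 615 for the MTA-GFP input, 258 in the control IP and 1589 in the control input, and EDA25 had 300, 120, 54 and 541. The 11 translation factor genes had medians of -0.00 in the MTA-GFP pair, 0.81 in the control pair, -0.97 in the double ratio and 0.93 between the inputs, on the same side of all loci as the ribosomal protein genes in the last 3. TCTP had log2 ratios of 1.29 (1.14 to 1.45) and 1.06 (0.88 to 1.24) in the MTA-GFP and control pairs, and LOS1, the translation elongation factor 2, had 0.37 and 1.07. The 6 compared genes of the TOR pathway and its regulators had medians of 0.02, -0.02, 0.05, 0.04 and 0.01 in the 5 ratios, with TOR at -0.22 and RAPTOR1 at 0.25 in the MTA-GFP pair.

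Paralogs of the same protein were then compared by their share of the reads of their group within a library, which does not depend on scaling between libraries. There were 16 such groups with 36 of the 52 genes, and 14 groups with 32 genes had at least 40 reads in every library. For 21 of these 32 genes the intervals of the 4 libraries shared a common point, which does not show that their shares were equal. The 6 groups among these 14 whose shares differed most are described. The groups of RPL16A and of AT3G53890, with as few as 22 and 37 reads in a library, were left out of this ranking. Reads of near-identical paralogs may be divided between them by the quantification, so the split between them is less certain than their sum.

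RPL24A took 43.6% of the reads of RPL24A and STV1 in the MTA-GFP IP (38.1 to 49.3), 55.0% for the MTA-GFP input (46.4 to 63.4), 26% in the control IP (15.9 to 39.6) and 58.7% in the control input (50.8 to 66.2). STV1 (RPL24B), needed for gynoecium patterning, was the larger part in both IPs and the smaller in both inputs. The intervals of IP and input were apart in the control pair and overlapped in the MTA-GFP pair. RPS6 took 35.2% of the reads of RPS6 and EMB3010 (RPS6B) in the MTA-GFP IP (31.8 to 38.9), 50% for the MTA-GFP input (43.7 to 56.3), 32.8% in the control IP (25.5 to 41.1) and 60.3% in the control input (55.0 to 65.4). Here the intervals of IP and input were apart in both pairs, with EMB3010 the larger part in both IPs. For both proteins, the IP lay on the same side of its input in either line.

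In the group of PGY2, AT1G33120 and AT4G10450, PGY2 took 63.7% in the MTA-GFP IP (60.2 to 67.1), 64.4% for the MTA-GFP input (58.6 to 69.9), 45.4% in the control IP (36.3 to 54.8) and 57.8% in the control input (51.9 to 63.6). The control IP was the lowest. AT4G10450 took 6.54% in the MTA-GFP IP and 1.11% in the MTA-GFP input, against 10.2% in the control IP and 9.33% in the control input, and AT1G33120 took 29.8%, 34.4%, 44.4% and 32.8%. In the group of PFL, RPS18C and AT1G34030, PFL (RPS18A) took 26.5% in the MTA-GFP IP (22.9 to 30.6), 31.4% for the MTA-GFP input (23.2 to 40.9), 30.8% in the control IP (22.9 to 40.1) and 44.0% in the control input (35.3 to 53.0). The control input had the highest share, and its interval was apart only from that of the MTA-GFP IP. RPS18C had 48.7%, 51.96%, 51.4% and 42.2%, and AT1G34030 had 24.8%, 16.7%, 17.8% and 13.8%. EMB2296 took 65.8% of the reads it shared with AT4G36130 in the MTA-GFP IP, 67.4% for the MTA-GFP input, 73.1% in the control IP and 57.1% in the control input, and RPL23AA took 71.3%, 78.9%, 63.3% and 67.8% of those it shared with RPL23AB. In these last 2 pairs the 4 intervals shared a common point.

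**Figure D4:**
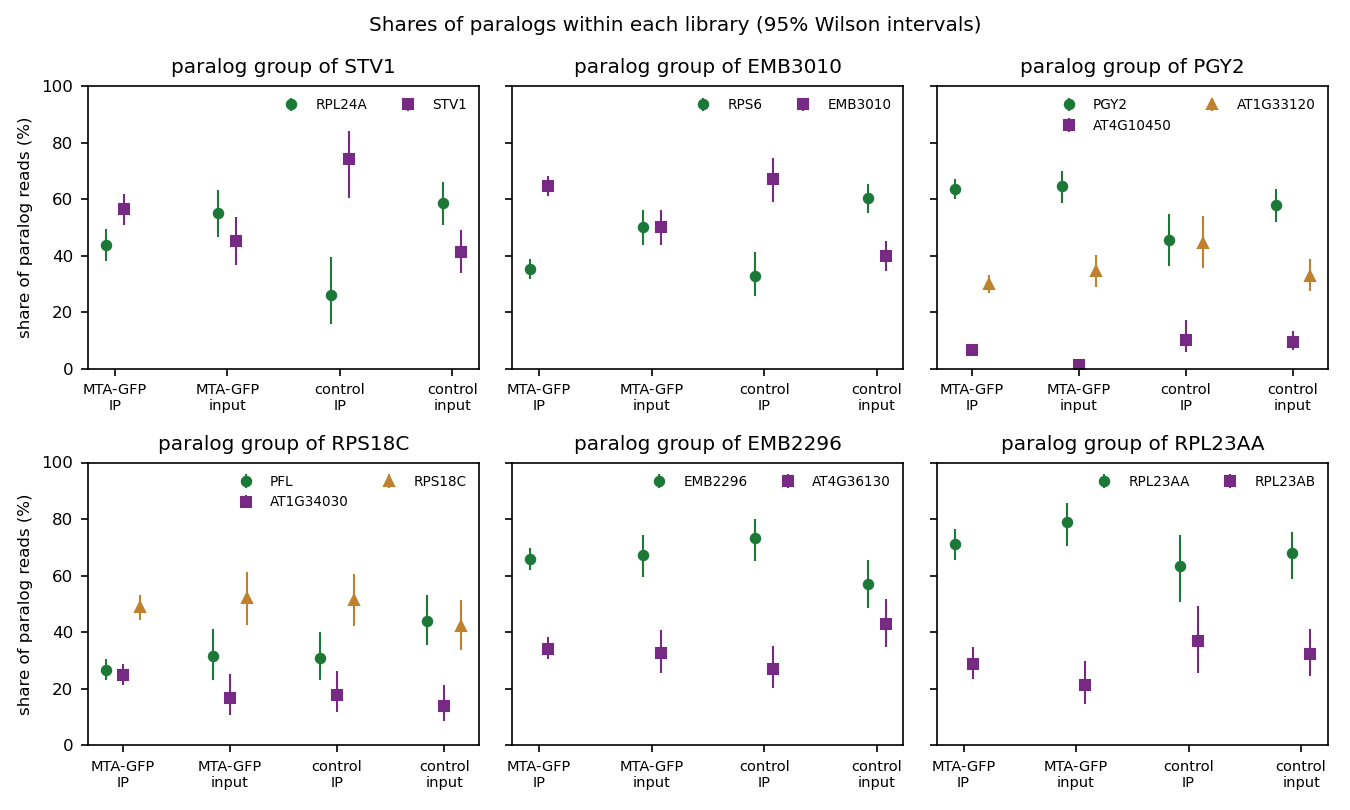
Share of each paralog in the reads of its group within each library, in percent with 95% Wilson intervals, for the 6 groups whose shares differed most among the 14 with at least 40 reads in every library. RPL24A and RPS6 are the smaller partner in both IPs, while EMB2296 took 57.1% to 73.1% and RPL23AA 63.3% to 78.9% with intervals that overlap.

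Of the 52 genes, 26 have several transcript entries in the tables, up to 9 for RP1. The entry that is longest was compared within each gene, for the 22 genes with at least 20 reads in each library summed over their entries. Pooled over these genes, the longest entry took 60.5% of the reads in the MTA-GFP IP (59.4 to 61.6), 48.1% for the MTA-GFP input (46.1 to 50.2), 59.2% in the control IP (56.9 to 61.5) and 48.5% in the control input (46.6 to 50.4). The shares were thus higher in both IPs than in both inputs. Over the 4260 coding loci with several entries that passed the same minimum, the shares were 41.8%, 33.6%, 38.2% and 34.2%. The share was higher in the IP for 16 genes, lower for 3 and equal for 3 in the MTA-GFP pair (72.7% higher, against 62.5% of the coding loci), and higher for 15, lower for 5 and equal for 2 in the control pair (68.2% higher, against 46.8%).

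Intervals of IP and input lay apart, with the IP higher, for 11 of the 22 genes in the MTA-GFP pair (41.7% of coding loci) and for 9 in the control pair (29.6%), and with the IP lower for 2 in each (15.8% and 21.3%). Apart and higher in both pairs were 6 of 22 genes, where coding loci gave 16.1%, and 1 gene was lower in both, where coding loci gave 6.06%. The 7 genes are named here after their values were seen. RPS10B had 75.2% of its reads on the entry of 1008 nt, the other being 874 nt, in the MTA-GFP IP (69.8 to 80.0), 26.97% for the MTA-GFP input (12.7 to 48.3), 81.1% in the control IP (70.1 to 88.8) and 0 of 74 reads in the control input (upper end 4.93%). Both IPs were high and both inputs low. RPS5A had 59.3% and 36.6% in the MTA-GFP IP and input, against 64.9% and 18.3% in the control IP and input, on an entry of 1081 nt where the other has 1017. RPS6 had 51.2% and 26.9% in the MTA-GFP IP and input and 57.5% and 33.6% in the control IP and input, for entries of 1170 and 885 nt. AT1G01100 had 39.97% and 18.9%, then 26.4% and 6.40%, in the same libraries. AT3G09200 and AT5G15200 had 95.7% or more on the longest entry in the IPs of both lines, against 72.8% to 84.4% in the inputs. RPL5B was the exception, with 84.9% in the MTA-GFP IP, 100% for the MTA-GFP input, 72.2% in the control IP and 100% in the control input, for entries of 1339 and 1291 nt. Such shares are estimates by the quantification from the few reads that tell entries apart, and entries of similar length can swap. For the 18 genes whose longest entry exceeds the next by at least 100 nt, an alternative chosen after the data were seen, the pooled shares were 59.1% and 42.4% in the MTA-GFP IP and input, and 56.6% and 42.8% in the control IP and input.

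**Figure D5:**
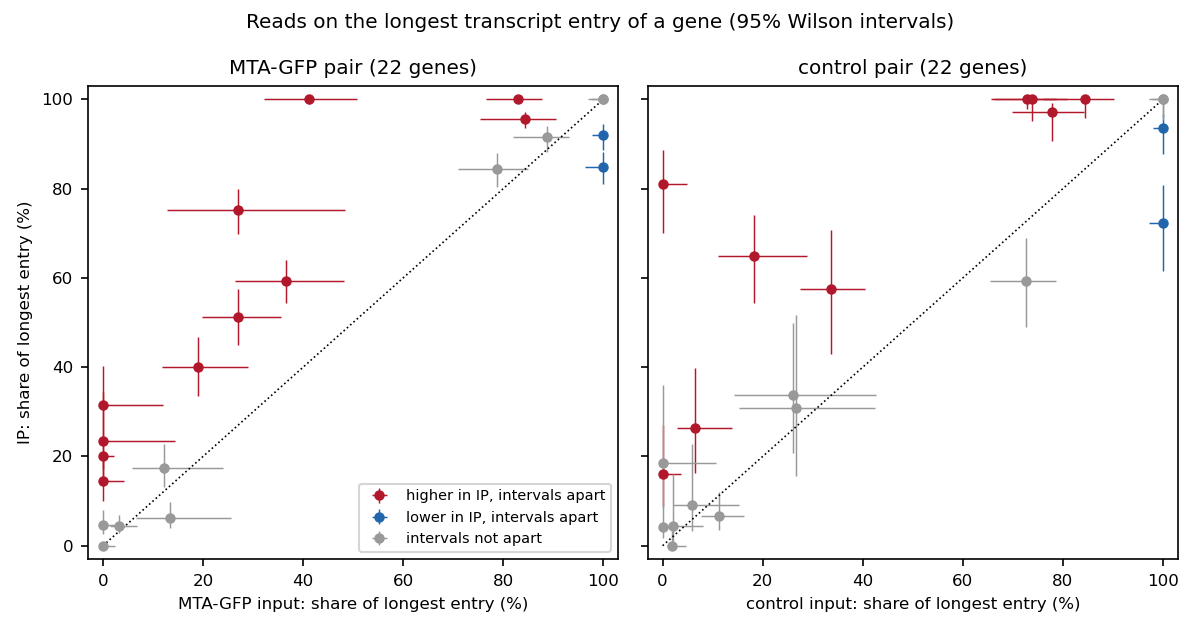
Share of reads on the longest transcript entry in the IP (y axis, percent) against the input (x axis, percent) for 22 genes in the MTA-GFP pair (left) and the control pair (right), with 95% Wilson intervals; red is higher and blue lower in the IP with intervals apart, and grey is neither. In the MTA-GFP pair 16 genes lie above the dotted line of equal shares, and in the control pair 15 do.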

How the data were processed

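The libraries are 1 MTA-GFP IP, 1 MTA-GFP input, 1 control IP and 1 control input. Trimmomatic, Bowtie, HISAT2, Salmon and TAIR10 are named, per the submitters' processing notes, without roles, versions or a strand setting. For 55524 entries the deposited files give the authors' estimated counts (NumReads) and TPM, per the file headers. Reads that fit more than one entry are shared out by the quantification, so values of near-identical paralogs and entries are uncertain.

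All entries of a locus were added up and rounded to whole reads. Nuclear mRNA is the reads of 27440 coding loci, leaving out loci within 10 kb of rRNA genes, and mRNA TPM is the deposited TPM rescaled over them. Library factors are TMM factors (edgeR 4.0.16, R 4.3.3) times library size over 15669 loci with at least 40 reads, at 2.37 for the MTA-GFP IP, 0.641 for the MTA-GFP input, 0.581 for the control IP and 1.13 for the control input. Log2 ratios have 0.5 scaled reads added. For ratios between 2 libraries the 95% intervals are exact (Clopper-Pearson, conditional on the sum), double ratios have intervals from Poisson variances on the log scale, and shares Wilson intervals. Reads were amplified by PCR with no molecular identifiers stated, so they need not be independent molecules, and intervals and the floor of 3 reads cover counting error only. edgeR was used for scaling only, since 1 library a group allows no test. The procedure was run on simulated Poisson counts. These hold no spread beyond counting error, so the run does not check the intervals for data without replicates.

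Symbols come from a RefSeq gene table (assembly TAIR10.1), which matched all 52 loci and gave a symbol for 24; the other 28 are given by locus. Subunit and paralog groups follow the standard naming of Arabidopsis ribosomal proteins. No coordinates or sequences are given, as no genome of the build was used here. Of the 52 loci, 12 overlap another gene. Library totals were 36098699 reads for the MTA-GFP IP, 43950307 for the MTA-GFP input, 45198238 for the control IP and 40011502 for the control input.

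The genes and lists were chosen with earlier results of these data known. Named are genes called in the double ratio or in the MTA-GFP IP over input, the 6 with the most reads and the 1 with the fewest, the paralogs of the 6 groups whose shares differ most, and the 2 most-read genes of each list; others were picked with their values in view. The 7 alternatives planned for the ratios were scaling to all reads, to nuclear mRNA reads or by median-of-ratios factors, the deposited TPM with 0.5 added (which changes unit, scaling and added value together, and calls by fold alone), 5 reads added, no minimum of reads, and paralogs summed. Shares and subunit ratios were repeated with TPM and without the most-read genes. After the data were seen, 4 more were added: leaving out AT2G16586, leaving out overlapping genes, entries differing by at least 100 nt, and mRNA TPM.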

Additional observations from a re-analysis of the deposited data

Results flagged for a closer look

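For 4 ribosomal protein genes the recovery in the MTA-GFP pair and in the control pair differed by at least 2-fold on TMM-scaled reads. None of them was called under every alternative. With 0.5 added, the interval of the double ratio left out 1 by counting error, but for RPL16A this did not hold with 3 reads allowed for the library at 0. No replicate check exists. These 4 are 8.16% of the 49 genes compared, against 17.5% of all loci called in the same way. EMB2296 had a log2 double ratio of -1.34, with 158 scaled reads in the MTA-GFP IP, 151 in the MTA-GFP input, 169 in the control IP and 63.5 in the control input. RPS13A had -1.10, with IPs that were alike and a higher MTA-GFP than control input. With nuclear mRNA scaling neither EMB2296 (-0.93) nor RPS13A (-0.69) stayed past 2-fold. Scaled to all reads they turned to 1.957 and 2.19. AT4G10450 had 2.25, which rests on 3 reads in the MTA-GFP input, and it was not called with 5 reads added (1.58). RPL16A, with 29, 5, 0 and 9 reads in the MTA-GFP IP, MTA-GFP input, control IP and control input, was at least 2.41-fold higher, and its interval with 3 reads allowed for the library at 0 includes 1. With 5 reads added, RPL16A was not called either. AT4G10450 and RPL16A passed the minimum of reads only through the reads of the MTA-GFP IP.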

How the results depend on the processing

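Values that moved are given in the order MTA-GFP pair, control pair, double ratio, inputs and IPs (MTA-GFP over control in the last 2). For the alternatives in this section the share of all loci called was not computed, so the counts of genes called have no background beside them. Scaled to all reads, the median log2 ratios were 2.11, -0.95, 2.90, -0.33 and 2.53, against 2.11, -1.12, 3.25, -0.95 and 2.31 over all loci. Genes called higher were 49, 0, 49, 0 and 49, and lower 0, 18, 0 and 3 in the first 4 ratios. A library factor shifts all loci alike, so these counts are not read as a trait of the genes. Scaled to nuclear mRNA reads, the medians were 0.239, 0.0609, 0.0346 and, between the IPs, 0.54; called higher were 4 in the MTA-GFP pair, 4 in the double ratio and 9 between the IPs, and lower 0 in the MTA-GFP pair, 0 in the double ratio and 2 between the inputs. With the deposited TPM and 0.5 added, which by construction damps ratios of low values, the medians were 0.267, 0.0142, 0.258, 0.0317 and 0.287, and 0 genes were called in any ratio. With mRNA TPM they were 0.237, 0.0135, 0.223, 0.446 and 0.611; called higher were 9, 5 in the double ratio, 2 between the inputs and 9 between the IPs, and lower 0 in the MTA-GFP pair, 0 in the double ratio and 2 between the inputs. TPM calls use the fold alone. Median-of-ratios factors gave 0 lower in the MTA-GFP pair and 2 lower between the inputs; 5 reads added gave 0 lower in the MTA-GFP pair and 0 higher in the double ratio; no minimum of reads gave 0 lower in the MTA-GFP pair. Paralogs summed gave 1 higher and 0 lower in the MTA-GFP pair, 3 and 0 in the control pair, 0 and 0 in the double ratio, 0 lower between the inputs and 0 higher between the IPs. Genes that overlap no other gene gave 0 lower in the MTA-GFP pair, 1 lower in the double ratio and 2 higher between the IPs. By TPM, the share of mRNA was 0.765%, 0.640%, 0.482% and 0.475% in the MTA-GFP IP, MTA-GFP input, control IP and control input; without AT2G41840 it was 0.417%, 0.384%, 0.284% and 0.259%, and without AT2G16586 it was 0.345% in the control IP. Large over small subunit was 1.05 in the MTA-GFP IP and 1.12 in the control IP by TPM, and 1.45 in the MTA-GFP input and 1.37 in the control input without the most-read genes. The longest-entry share with a gap of at least 100 nt was 59.1%, 42.4%, 56.6% and 42.8%. The other 76 values stayed within 1.5 times a count, or within the interval or spread of the value; the cause of the moves was not tested. No paired analysis was possible because each group has 1 library, and for the same reason none could be left out. Genes with few reads, such as AT4G10450 and RPL16A, are limited by depth.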
